A study of Mus musculus with 2 samples.

Results

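Sd7 is 1 of the 13 clusters into which the authors grouped the single cells of mouse testes, and the seventh of the 10 named Sd, the first of which the authors describe as mixed with spermatocytes. Its 1571 cells are those that the authors' cell table assigns to Sd7, 700 of the 5170 cells of the WT library (13.5%, exact binomial 95% interval 12.6 to 14.5) and 871 of the 7238 cells of the KO library (12.03%, 11.3 to 12.8), out of 12408 cells in all. The WT library came from normal adult C57BL/6 mice, given as male C57BL/6N of 10 to 12 weeks in the study's methods. The KO library came from mice of that background in which CRISPR/Cas9 had removed every reading frame of Tex13a, an X-linked gene, from the germline on, so that no cell type kept it. For each genotype, 3 testes of 3 mice were pooled and sequenced as 1 library, so the mice cannot be told apart, no value has a replicate, and whatever differs between WT and KO below may belong to the genotype or to the library, which cannot be told apart. All intervals below are 95% intervals for counting error only. No p-value is given, because the clusters were made from the same genes that are compared between them.

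Elongating spermatids are haploid germ cells that replace the histones of their chromatin, first by transition proteins and then by protamines, while the nucleus condenses and takes the shape of a sperm head. The manchette, a skirt of microtubules, shapes the head, the acrosome spreads over it, and outer dense fibres and the fibrous sheath are built around the axoneme of the tail. Transcription stops during elongation, so that the proteins of the late steps are made from mRNAs that were transcribed earlier, stored without translation and later removed.

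The matrix has more rows than the authors' list has symbols, so a gene could be read only where its symbol fits 1 row. With only rows seen in under 5 cells allowed to lack a symbol, this held for 5476 of 25065 symbols. They held 93.3% of the UMIs of Sd7 in each library and 86.9% of the UMIs of all cells. Without that assumption 2648 symbols fit 1 row, with 58.4% of the UMIs of all cells. Sd7 cells carried the markers that define elongating spermatids. Prm1 (protamine 1) reached 130040.0 UMIs per 1000000 UMIs (CPM) in WT and 129497 CPM in KO, and Tnp1 (transition protein 1) reached 49019 and 46285 CPM. Every cell of Sd7 in both libraries had UMIs of Prm1, Prm2, Tnp1 and Tnp2, and so did every cell of Sd6 and Sd8. The cluster held 5142336 UMIs in WT and 5906733 in KO, with a median of 5870.5 and 5673 UMIs and of 1481 and 1481 genes per cell. The lowest UMI count of a cell was 3325 in WT and 3722 in KO, and the highest 43715 and 77080. Mitochondrial UMIs were a median of 0.219% of a cell's UMIs in WT and 0.280% in KO. No cell barcode was shared by the 2 libraries. UMIs of genes listed as somatic markers were present in Sd7 of both libraries. Such genes can also be read in germ cells, as Ctsl of the Sertoli list was highest in Sc1, at 536 CPM in WT and 590 CPM in KO. The sums are thus not a measure of somatic cells alone. The 6 readable Sertoli markers summed to 20.4 CPM in WT and 7.45 in KO, the 4 Leydig markers to 12.06 and 12.02, and the 3 peritubular and stromal markers to 1.94 and 1.19. The 4 macrophage and immune markers summed to 71.4 and 87.9 CPM (367 and 519 UMIs), and no endothelial marker could be read. The 3 erythroid markers summed to 213 and 7.96 CPM and are taken up with the KO comparison.

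The genes of nuclear packaging are neighbours in part. Prm1, Prm2, Prm3 and Tnp2 lie together on the minus strand of chromosome 16, while Tnp1 lies on chromosome 1 and Hmgb4, which encodes an HMG-box protein of spermatids, on chromosome 4. The RefSeq table of GRCm38.p6 held a promoter for all 8 members of this list, H1fnt under the symbol H1f7. The last 100 bases before the annotated start are shown for the 6 members with most UMIs in Sd7, of which 2, Tnp2 and Hmgb4, were highest in Sd7. Capitals mark TGANNTCA, a pattern close to the binding site of CREM, the cAMP-responsive factor of spermatids, which reads the same on both strands.
Prm1: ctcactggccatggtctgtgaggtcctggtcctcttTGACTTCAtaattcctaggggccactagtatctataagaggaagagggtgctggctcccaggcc
Prm2: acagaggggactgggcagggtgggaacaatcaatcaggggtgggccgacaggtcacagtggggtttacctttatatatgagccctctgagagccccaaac
Prm3: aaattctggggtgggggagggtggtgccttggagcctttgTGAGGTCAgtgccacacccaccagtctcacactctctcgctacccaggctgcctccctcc
Tnp1: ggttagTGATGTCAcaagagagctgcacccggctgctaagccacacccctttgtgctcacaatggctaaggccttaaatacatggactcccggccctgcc
Tnp2: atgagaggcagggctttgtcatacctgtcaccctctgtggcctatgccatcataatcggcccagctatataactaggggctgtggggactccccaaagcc
Hmgb4: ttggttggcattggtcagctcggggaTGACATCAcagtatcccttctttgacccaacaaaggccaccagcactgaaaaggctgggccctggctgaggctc
These stretches lie on the minus strand at chr16:10796824-10796923 (Prm1), chr16:10792106-10792205 (Prm2), chr16:10790915-10791014 (Prm3), chr1:73015900-73015999 (Tnp1), chr16:10788656-10788755 (Tnp2) and chr4:128260896-128260995 (Hmgb4). The pattern begins 64 bases before the start of Prm1, 60 before Prm3, 94 before Tnp1 and 74 before Hmgb4. It was not present in the 250 bases before Prm2, Tnp2, Hils1 or H1fnt. Of all 32851 promoters in the table, 11.9% hold it in the 250 bases before the start and 6.34% in the last 100. The match describes letters only. Tnp2 and Hmgb4, which both had their highest level in Sd7 (below), fall on either side of it.

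The 8 nuclear packaging genes summed to 264582 CPM in Sd7 of WT and 261107 CPM in KO, which lay between 225843 and 223805 CPM in Sd6 and 297730.0 and 293716 CPM in Sd8. Their courses were not alike. Prm1 stood higher in each later cluster, with 109145, 130040.0 and 157913 CPM in Sd6, Sd7 and Sd8 of WT and 109212, 129497 and 158505 CPM in KO. Prm2 (protamine 2) followed the same order, with 34619.7, 40738 and 48757 CPM in WT and 34529.7, 40372 and 48361 in KO, and so did Prm3, with 4278, 5043 and 5607 CPM and 4418, 5195 and 5783 CPM. Each of these steps was below 1.5-fold. The log2 ratio of Prm1 was 0.25 (0.25 to 0.26) over Sd6 and −0.28 (−0.29 to −0.28) over Sd8 in WT, with 0.25 and −0.29 in KO. Tnp1 changed less towards Sd8, with 41682, 49019 and 52859 CPM in WT and 39625, 46285 and 48399.6 CPM in KO. H1fnt, a linker histone of spermatids, stood at 1286, 1406 and 1452 CPM in WT and 1223, 1337 and 1372 CPM in KO.

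Tnp2 and Hmgb4 were highest in Sd7. Tnp2 (transition protein 2) had 21921, 26382 and 22535 CPM in Sd6, Sd7 and Sd8 of WT and 21259.5, 25339.7 and 21792 CPM in KO. Its log2 ratio was 0.27 (0.25 to 0.28) over Sd6 and 0.23 (0.22 to 0.24) over Sd8 in WT, and 0.25 (0.24 to 0.27) and 0.22 (0.21 to 0.23) in KO. Hmgb4 had 8117, 9267 and 7845 CPM in WT and 9013, 10467 and 8601 CPM in KO. For both genes no other cluster of the 13 had a higher level in either library, while Prm1 and Tnp1 were highest in Sd8, Prm3 in Sd9 and Prm2 in Sd10. Hils1, a spermatid-specific linker histone, ran the other way. It was highest in Sd6, with 4794, 2688 and 761 CPM over Sd6, Sd7 and Sd8 of WT and 4525, 2615 and 903 CPM in KO. It was the member of the list that differed from both neighbours by more than 1.5-fold, with a log2 ratio over Sd6 of −0.83 in WT and −0.79 in KO and over Sd8 of 1.82 in WT and 1.53 in KO. By Sd10 of WT, Tnp2 was at 1454 CPM, Hmgb4 at 475 CPM and Hils1 at 248 CPM. No ratio of a packaging gene turned its sign under any scaling that was tried.

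**Figure D1:**
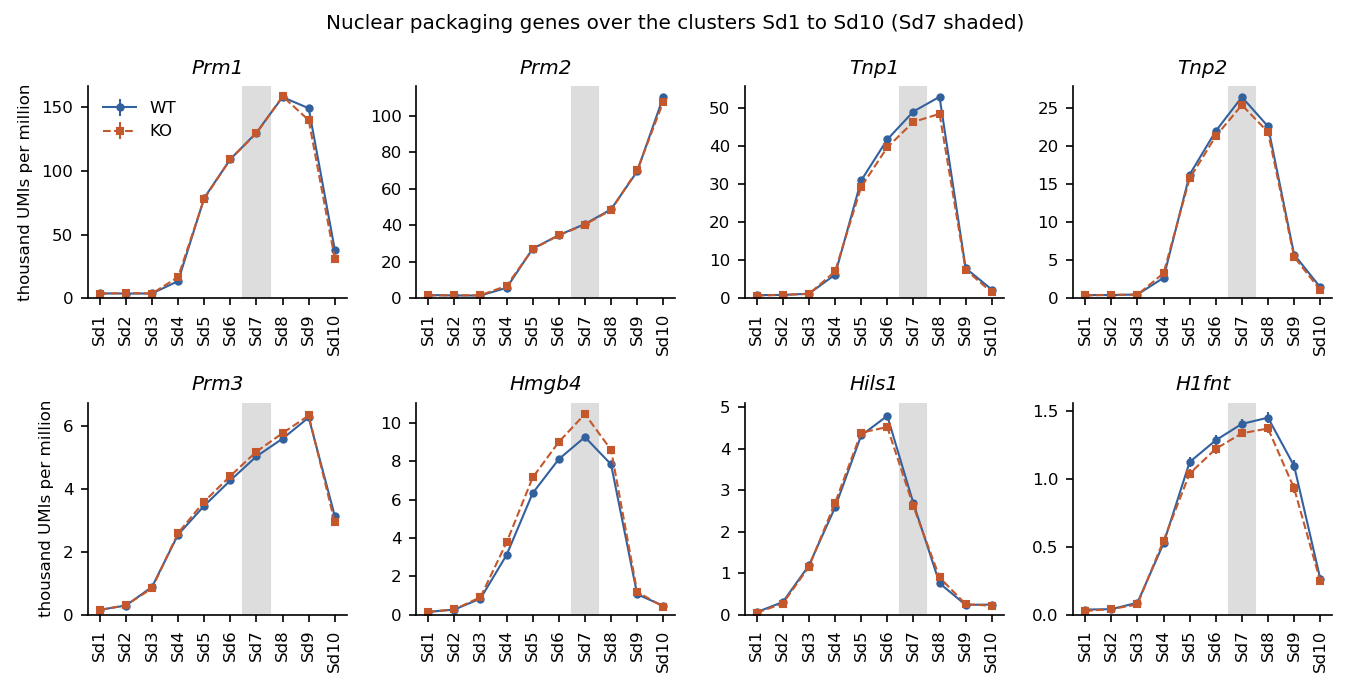
Level of the 8 nuclear packaging genes (vertical axis, CPM divided by 1000) in the clusters Sd1 to Sd10 (horizontal axis), in WT (blue circles, solid line) and KO (orange squares, dashed line), with 95% Poisson intervals that are mostly smaller than the symbols. Sd7 is shaded. Tnp2 and Hmgb4 peak in it at 26382 and 9267 CPM in WT, Prm1 and Tnp1 are highest in Sd8, and Hils1 in Sd6.

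Cell by cell, the Sd7 cells lay between those of Sd6 and Sd8 with overlap at both sides. Prm1, Prm2, Prm3, Tnp1 and Tnp2 together took a median of 25.7% of the UMIs of a WT cell in Sd7 (quartiles 24.2 and 27.1, lowest 18.3, highest 32.1) and 25.04% of a KO cell (23.6 and 26.7, lowest 17.1, highest 34.7). The medians were 21.7% and 21.2% in Sd6, and 29.7% and 29.0% in Sd8. Of the 700 WT cells of Sd7, 661 (94.4%) lay between these 2 medians, 25 lay below that of Sd6 and 14 above that of Sd8. In KO these numbers were 776 of 871 (89.1%), 35 and 60. The share above the median of Sd8 was thus 2% in WT and 6.89% in KO, each against its own library's Sd8. Hils1 took a median of 0.247% of a WT cell's UMIs (quartiles 0.152 and 0.352) and 0.245% of a KO cell's (0.147 and 0.345), against 0.477% and 0.455% in Sd6 and 0.0552% and 0.0605% in Sd8. Only 2 WT cells and 1 KO cell of Sd7 had no Hils1 UMI, against 44 of 618 and 63 of 784 cells in Sd8. Within Sd7, cells with a larger share of the 5 genes had a smaller share of Hils1 (Spearman's rho −0.54 across 700 WT cells and −0.50 across 871 KO cells). Both shares have the same total as denominator and come from 1 library each, so the correlation is a description of these cells.

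**Figure D2:**
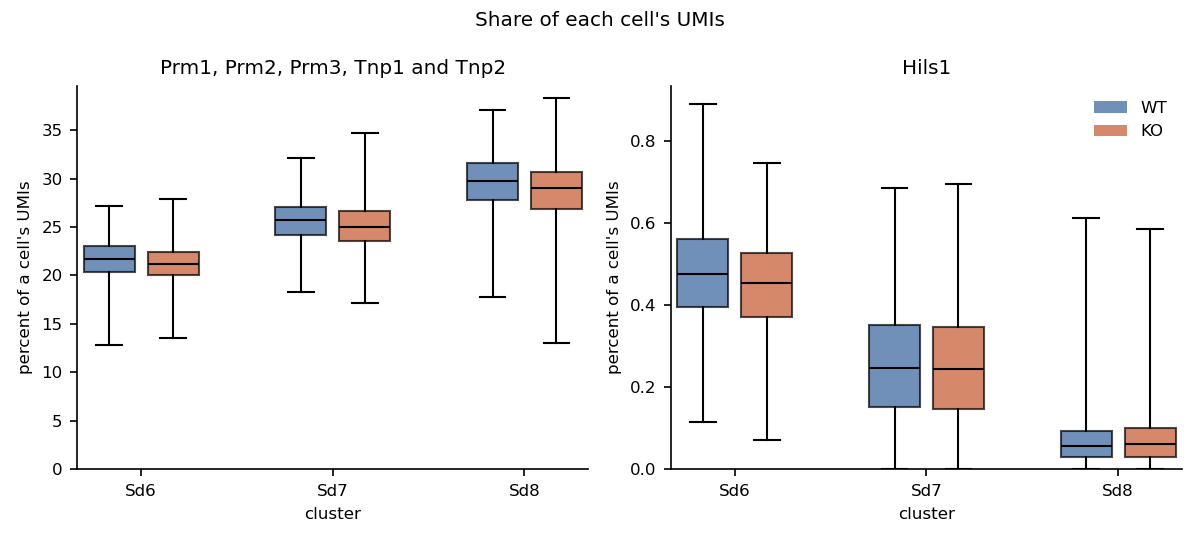
Percent of a cell's UMIs (vertical axis) taken by Prm1, Prm2, Prm3, Tnp1 and Tnp2 together (left) and by Hils1 (right) in the cells of Sd6, Sd7 and Sd8 of WT (blue) and KO (orange). Boxes show quartiles and the median, and whiskers the lowest and highest cell. The Sd7 medians of 25.7% and 25.04% on the left lie between those of its neighbours and so do those of 0.247% and 0.245% on the right.

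Fewer genes were detected in an Sd7 cell than in an Sd6 cell, and more than in an Sd8 cell. When every cell was thinned to 3000 UMIs, which left out none, a WT cell had a median of 1112.5 genes in Sd6, 1015 in Sd7 and 921 in Sd8, and a KO cell 1133.5, 1033 and 934. Without thinning the medians were 1618, 1481 and 1269.5 genes in WT and 1622.5, 1481 and 1309.5 in KO. The thinned cells share a UMI total but not the share of it that the 5 protamine and transition protein genes take, and across Sd7 cells that share and the thinned gene number had a Spearman's rho of −0.80 in WT and −0.83 in KO. The part of this share in the difference between clusters was not tested.

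Against Sd6, Sd7 was marked by loss. Of 4355 genes with 10 or more UMIs in both clusters together in each library, 665 were at least 1.5-fold lower in Sd7 in both libraries (15.3%) and 12 were at least 1.5-fold higher (0.276%). The median log2 ratio over all these genes was −0.21 in WT and −0.16 in KO, so that most genes had a smaller share of the total. With edgeR's TMM scaling, which moved this median by 0.17 in WT and 0.15 in KO, 467 genes were lower and 27 higher. Among the 2765 genes with 100 or more UMIs, 407 were lower and 0 were higher by that fold in both libraries, and none passed the fold in opposite directions in the 2 libraries. Among all 4355 genes, 63 passed it in opposite directions, more than the 12 that were higher in both. The 12 higher genes, which were named after their values were seen, were 4930483J18Rik, 4930594C11Rik, Cdrt4os1, Cnot2, Dhx58, Igha, Mtmr3, Naa25, Nav2, Pfkp, Tmem263 and Zdhhc3. Except for Igha in KO, where 121 of its 124 UMIs were in 1 cell, none of them had more than 26 UMIs in Sd7 of a library.

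Genes with the steepest loss from Sd6 were ranked by the weaker of their losses in the 2 libraries. They were, in order, Cst13, Faiml, Cntn1, Ccer1, 1700095A21Rik, Actrt3, Dcdc2c and CT025686.2. Cst13, a cystatin, fell from 854 CPM in Sd6 to 81.3 CPM in Sd7 of WT and from 832 to 71.95 CPM in KO, a log2 ratio of −3.39 (−3.55 to −3.24) and −3.53 (−3.68 to −3.38). It had been highest in Sd5 and stood at 38.1 and 57.8 CPM in Sd8, so that its steepest step was the one into Sd7. Cntn1, a cell adhesion protein, went from 176 to 26.4 CPM in WT and from 172 to 19.3 CPM in KO. Actrt3, an actin-related protein of the perinuclear theca, went from 277 to 44.3 CPM in WT and from 251 to 42.7 CPM in KO. The other 5 had log2 ratios between −2.45 and −2.94. The libraries differed most for Cntn1, with −2.73 in WT and −3.15 in KO.

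At the other end, the largest gains over Sd6 among genes with 100 or more UMIs were small. Smarcc2, a subunit of the BAF chromatin remodelling complex, had 13.5 CPM in Sd6 and 20.8 CPM in Sd7 of WT, and 13.5 and 19.6 CPM in KO, a log2 ratio of 0.62 (0.08 to 1.19) and 0.53 (0.01 to 1.09). Taf6, a subunit of the general transcription factor TFIID, had a log2 ratio of 0.58 in WT and 0.46 in KO, with intervals that include 0 in both. Gm45444, Pqlc1, Rundc3a, 1700101I19Rik, Poldip2 and Gm44028 followed, with the smaller of their 2 log2 ratios between 0.36 and 0.37. Of these 8 genes, only Smarcc2 and Gm45444 passed 1.5-fold in a library, each in 1 of the 2, and the ratio of Gm45444 in WT turned to −0.04 when cells were thinned to 3000 UMIs. The most abundant mRNAs of Sd7 besides the packaging genes were Smcp, Oaz3, Dbil5 and Fam229a. Smcp, a cysteine-rich protein of the sperm mitochondrial capsule, had 10832, 12646 and 15075 CPM in Sd6, Sd7 and Sd8 of WT, and Oaz3, the testis antizyme, had 6947, 8123 and 10405 CPM. Fam229a, in contrast, was at its highest in Sd7, with 4711, 5198 and 2609.7 CPM in WT and 4576, 4998 and 2455 CPM in KO.

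**Figure D3:**
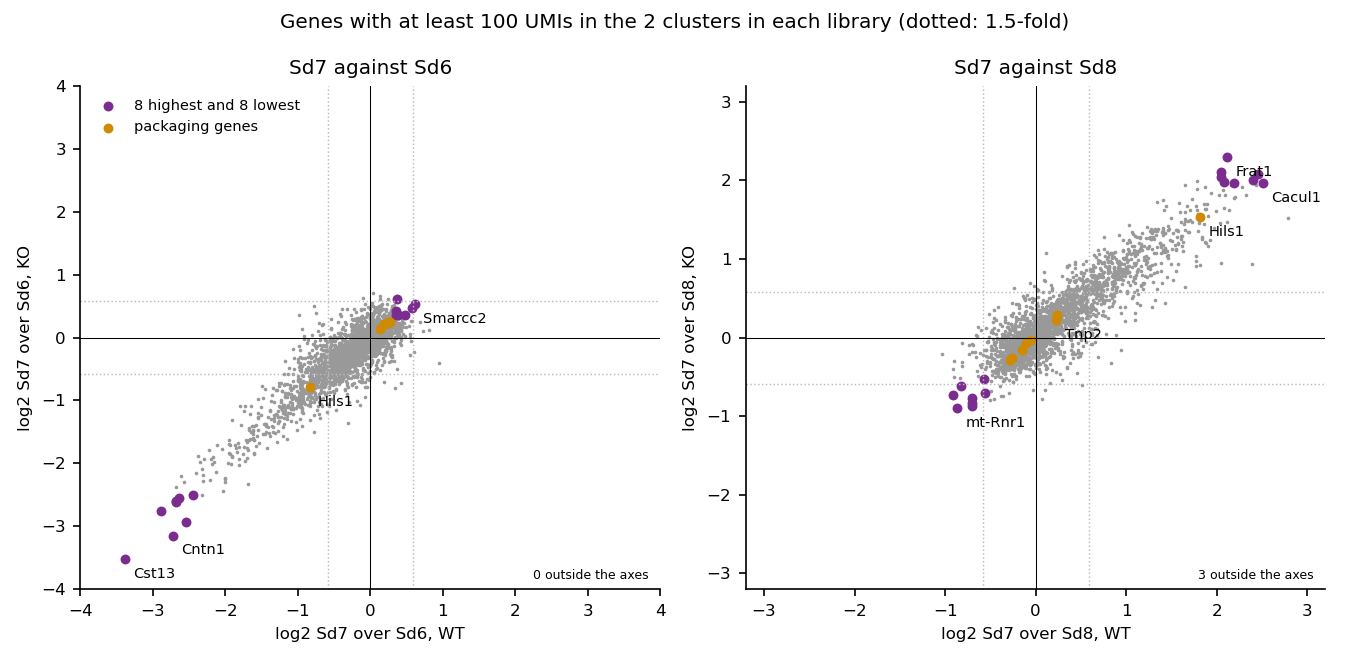
Log2 ratio of Sd7 over Sd6 (left) and over Sd8 (right) in WT (horizontal axis) and KO (vertical axis) for genes with at least 100 UMIs in the 2 clusters in each library. Purple points are the 8 highest and 8 lowest genes, orange points the packaging genes, and dotted lines 1.5-fold. On the left the points reach down to −3.53 and none passes 1.5-fold upwards in both libraries, and on the right 449 pass it upwards and 6 downwards. The 3 globin genes lie outside the right axes.

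Read by role, the mRNAs lost between Sd6 and Sd7 were spread over many groups, each given here beside the 15.3% of all genes. The examples within groups include genes chosen after their values were seen. Among spermatid transcription regulators 6 of 12 genes were lower by 1.5-fold, and none was higher. Gtf2a1l, the germ cell form of a TFIIA subunit, fell from 124 to 20.03 CPM in WT and from 111 to 24.2 CPM in KO. Fhl5, the coactivator of CREM, fell from 686 to 389 CPM and from 659 to 373 CPM, and Sox30, Hemgn, Cdyl and Tbpl1 were the other 4. In the acrosome group 12 of 34 were lower, among them Fam170b (log2 ratio −2.23 in WT and −1.78 in KO) and Spaca7 (−1.03 in WT and −0.97 in KO). Acrosin itself (Acr) was already low in Sd6, at 18.04 CPM in WT. Of the nuclear genes of oxidative phosphorylation 15 of 68 were lower, among them Ndufa7 of complex I (−1.45 in WT and −1.38 in KO) and Atp5b of the ATP synthase (−1.20 in WT and −1.08 in KO). Of the axoneme genes 12 of 56 were lower, such as Rsph9 of the radial spokes (−1.02 in WT and −1.47 in KO). In the heat shock and cochaperone list 7 of 35 were lower, and 4 of these 7 were Cct3, Cct4, Cct7 and Cct8, subunits of the chaperonin that folds tubulin and actin. Of the spermatocyte markers 7 of 25 were lower, and the list's sum went from 7167 CPM in Sd6 to 4738 CPM in Sd7 of WT and from 7147 to 4845 CPM in KO.

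The share of members lower than in Sd6 was below that of all genes in some groups and not in others. In the proteasome group 1 of 32 genes was lower, and of the translation factors 3 of 35 were. Of the cytosolic ribosomal proteins 9 of 74 were lower and the median log2 ratio was 0.03 in both libraries. The 9 included Rpl22l1 (−2.57 in WT and −2.30 in KO) and Rpl34 (−1.65 in WT and −1.09 in KO). Ribosomal protein genes have many near-identical pseudogenes, so counts of single members are uncertain. In the outer dense fibre and fibrous sheath group 5 of 30 were lower, among them Akap3 of the fibrous sheath, while Odf2 and Akap4 did not pass the fold. Odf2 had 1935, 2178 and 2749.8 CPM in Sd6, Sd7 and Sd8 of WT, and Akap4, the main protein of the fibrous sheath, 956, 1152 and 1494 CPM. Of the sperm glycolysis enzymes 1 of 13 was lower and 1, Pfkp, was higher on few UMIs. Gapdhs, the sperm form of glyceraldehyde-3-phosphate dehydrogenase, had 1862, 2217 and 2769 CPM in WT. The list of proteins that store mRNA or control its translation had 2 of 21 lower, Ybx3 (−1.02 in WT and −1.09 in KO), which coats stored mRNAs in spermatids, and Ddx4. In the mRNA decay list 4 of 16 were lower, among them Btg1 (−0.82 in WT and −0.74 in KO) and Tob1 (−1.15 in WT and −1.62 in KO), whose proteins bind the CCR4-NOT deadenylase.

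Against Sd8, Sd7 was marked by what it still held. Of 4386 genes read, 602 were at least 1.5-fold higher in Sd7 in both libraries (13.7%) and 71 were lower (1.62%), while the median log2 ratio was 0.03 in WT and 0.06 in KO. Sd7 is part of this comparison and of that with Sd6, so the 2 are not independent. Among the 2732 genes with 100 or more UMIs, 449 were higher and 6 lower, and 3 passed the fold in opposite directions, as did 49 of all genes read. Genes with 100 or more UMIs were ranked by the smaller of their ratios in the 2 libraries. The 8 leading genes were Frat1, Cdyl, 1700025B11Rik, Odf3, 4921530L21Rik, Akap3, 1700129C05Rik and Cacul1, in this order. In WT alone the order differs, as Cdyl had a larger ratio than Frat1. Frat1, which binds the kinase GSK3, had 161, 114 and 26.3 CPM in Sd6, Sd7 and Sd8 of WT and 158, 104 and 21.1 CPM in KO, a log2 ratio over Sd8 of 2.11 (1.81 to 2.44) in WT and 2.30 in KO. Cdyl, a chromodomain protein that acts on histone acylation, had 842, 266 and 48.5 CPM in WT and 883, 287 and 67.8 CPM in KO, so that it fell both into Sd7 and after it. Akap3 ran likewise, with 849, 366 and 86.6 CPM in WT and 813, 380.2 and 96.6 CPM in KO. Frat1, 1700129C05Rik and Cacul1 had most of their loss after Sd7, with log2 ratios over Sd6 between −0.65 and −0.49 in both libraries.

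Several abundant mRNAs fell after Sd7, among them some whose highest level lay in much earlier clusters. Spata19, a protein of the mitochondria of the midpiece, had 4403, 4696 and 1709 CPM in Sd6, Sd7 and Sd8 of WT and 4394, 4543 and 1758 CPM in KO, and Meig1, which is needed for the manchette, had 5783, 5185 and 2847 and 5431, 4864 and 2698 CPM. Ldhc, the testis lactate dehydrogenase, had 5096, 3245 and 1223 CPM in WT and 5005, 3346 and 1356 CPM in KO. The cysteine-rich perinuclear theca family showed both patterns. Cypt1 had 2337, 1959.6 and 440.3 CPM in WT, with its large step after Sd7, and Cypt4 had 3543, 1338 and 513 CPM, with its large step before it. Rpl13, a ribosomal protein, did not pass the fold into Sd7 and fell after it, with 1068, 1129 and 269 CPM in WT and 1054, 1136 and 309 CPM in KO. Phf7, a ubiquitin ligase for histone H2A, ran likewise, with 1637, 1756 and 749.7 CPM in WT and 2137, 2429 and 919.8 CPM in KO.

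By group, beside 13.7% of all genes, 7 of 15 round spermatid markers were higher in Sd7 than in Sd8, 12 of 44 other haploid markers, 8 of 30 genes of the outer dense fibres and fibrous sheath, 9 of 34 acrosome genes and 7 of 32 proteasome genes. The sum of a list could run the other way, as the outer dense fibre and fibrous sheath list summed to 53841 CPM in Sd7 and 55135 CPM in Sd8 of WT and to 54137 and 55255 CPM in KO, with a median log2 ratio of −0.18 and −0.22. The round spermatid list summed to 6964 and 7113 CPM in WT and 6691 and 6959 CPM in KO. The proteasome genes were spread over the complex and its helpers, for example Psmc3 (log2 ratio 0.92 in WT and 0.75 in KO), an ATPase of the regulatory particle, and Psmd7 (0.97 in WT and 1.24 in KO), one of its lid subunits. Of the axoneme genes, of which 12 had been lower than in Sd6, 3 of 56 were higher than in Sd8. For the translation factors the count was 0 of 35. The genes of mRNA storage and translation had 4 of 21 higher, namely Ybx3 (2.09 in WT and 1.81 in KO), Samd4 (1.05 in WT and 1.22 in KO), a repressor of translation, Papolb (0.92 in WT and 1.31 in KO), the testis poly(A) polymerase, and Cpeb2 (1.57 in WT and 1.62 in KO). Of the cytosolic ribosomal proteins 11 of 74 were higher and of the nuclear oxidative phosphorylation genes 11 of 68, both near the share of all genes. The mitochondrially encoded genes differed in direction, since 3 of 8 were lower in Sd7, beside 1.62% of all genes, and none was higher. The rRNA mt-Rnr1 had 414, 319 and 582 CPM in Sd6, Sd7 and Sd8 of WT and 391, 347 and 648 CPM in KO, and mt-Cytb and mt-Nd5 were the other 2. The median percent of mitochondrial UMIs in a cell was 0.184, 0.219 and 0.269 over Sd6, Sd7 and Sd8 of WT and 0.268, 0.280 and 0.412 of KO. Gm42418, which overlaps an rRNA repeat, was also lower in Sd7, with a log2 ratio of −0.70 in WT and −0.77 in KO.

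**Figure D4:**
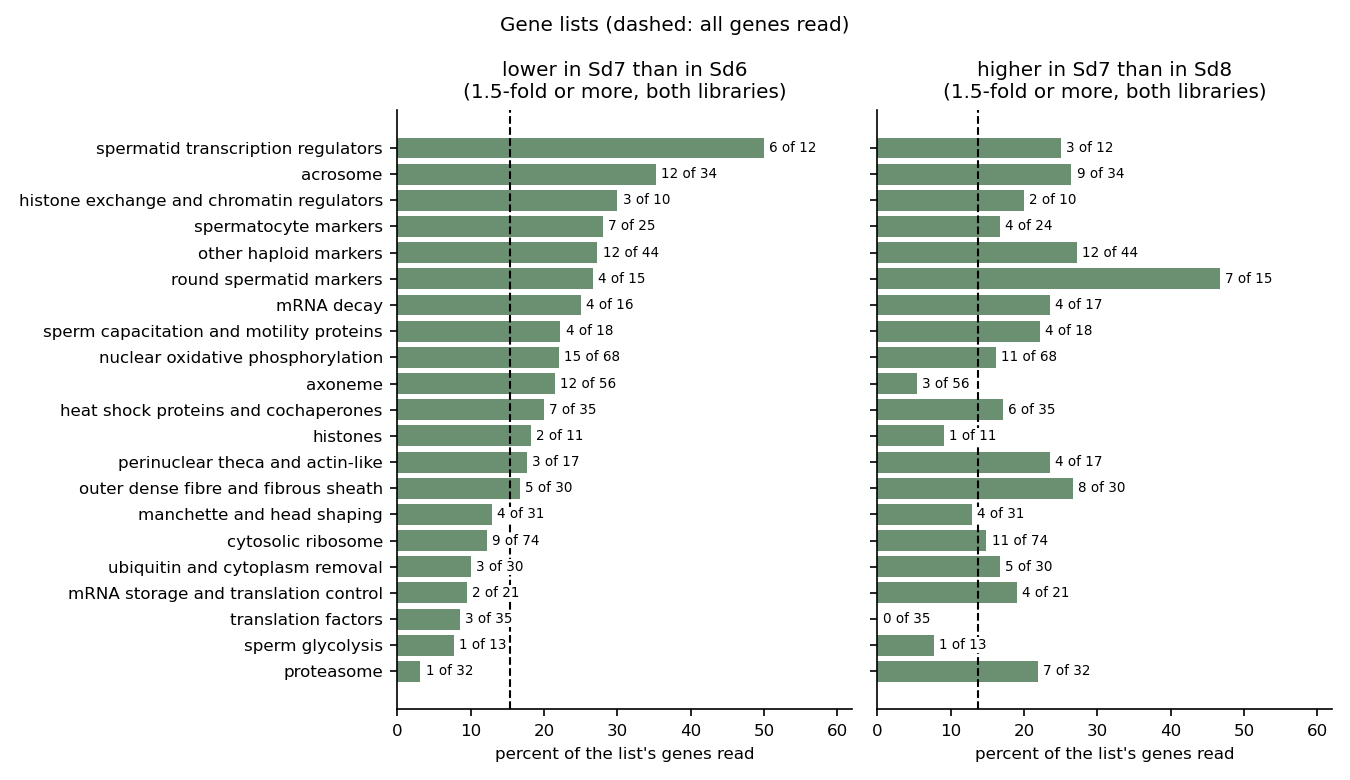
Percent of the genes read in each list (horizontal axis) that were at least 1.5-fold lower in Sd7 than in Sd6 (left) or higher in Sd7 than in Sd8 (right) in both libraries, with the counts beside the bars, for lists with at least 10 genes read against Sd6. The dashed lines stand at 15.3% and 13.7%, the shares of all genes read. Spermatid transcription regulators reach 6 of 12 on the left and round spermatid markers 7 of 15 on the right.

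Few genes were highest in Sd7. Of 4813 genes with 100 or more UMIs in each library, 76 (1.58%) had their highest CPM of all 13 clusters in Sd7 in both libraries, near the 78 of Sd6 and the 57 of Sd8 and below the 365 of Sd10. The 4 with the most CPM were Tnp2, Hmgb4, Fam229a and Spata19, followed by 1700019M22Rik. Others were Arl2bp, which binds the small GTPase ARL2, with 1263, 1537 and 1281 CPM in Sd6, Sd7 and Sd8 of WT and 1257, 1411 and 1204 CPM in KO, and Psmf1, an inhibitor of the proteasome, with 1595, 1886 and 1835 and 1523, 1753 and 1717 CPM. Cylc2, a basic protein of the perinuclear theca, had 1206, 1214 and 874 CPM in WT and 1216, 1267 and 1008 CPM in KO. Tssk2, a testis-specific serine kinase, had 1346, 1431 and 897 and 1238, 1266 and 779.5 CPM, and Izumo2 of the acrosome list 604, 713 and 606 and 654, 715 and 585 CPM. For Cylc2 over Sd6 in WT, Tssk2 over Sd6 in KO and Psmf1 over Sd8 in both libraries the interval of the ratio included 0, so that their level in Sd7 could not be set apart from that neighbour's at this depth. The count of 76 has no minimum margin and includes such genes. Sd7 was also set against the 2 neighbours alone, whatever the level in the other clusters. No gene with 100 or more UMIs in Sd6 and Sd7 together passed 1.5-fold over both neighbours in both libraries. On fewer UMIs 4930483J18Rik did, with 3.12, 4.86 and 2.61 CPM in Sd6, Sd7 and Sd8 of WT. In KO it had 2.31, 4.402 and 2.71 CPM. Genes of so few UMIs were left out of the ranking. By the smallest of the ratios over Sd6 and Sd8 in both libraries, the 8 leading genes ranked were Gm44028, Gm34868, Impad1, Gm10069, Gm4758, Tnp2, 1700022H01Rik and 4933401H06Rik. This smallest log2 ratio ran from 0.36 down to 0.19. Of these, Gm44028, Gm10069, 1700022H01Rik and 4933401H06Rik had a higher level in an earlier cluster. Impad1, a phosphatase of the Golgi, had 119, 147 and 68.3 CPM in Sd6, Sd7 and Sd8 of WT and 124, 151 and 70.7 CPM in KO, and its intervals excluded 0 on both sides in both libraries. The same held for Tnp2 and for 1700022H01Rik, and not for the other 5, which had 51 to 223 UMIs in Sd7 of a library. In 1700022H01Rik and Gm10069 a ratio turned its sign when cells were thinned. In the opposite pattern AC121965.1, Hmgb2, Bola3, Sycp3 and Uchl3 were lowest in Sd7 among the 3 clusters, at 5.83 to 13.7 CPM. Sycp3, a protein of the synaptonemal complex of spermatocytes, had 17.00, 10.5 and 18.8 CPM in WT and 21.1, 13.7 and 19.6 CPM in KO. Hmgb2 did not keep this pattern, since its log2 ratio over Sd6 in WT went from −0.62 to 0.95 when each cell was thinned to 3000 UMIs. Nor did Uchl3, whose ratio over Sd6 in WT turned to 0.15 when the 5% of cells with most UMIs were left out.

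The comparison of KO with WT asks what the loss of Tex13a went with at this step. For Tex13a itself, 7 rows of the matrix were possible, of which 1 has no UMI in the whole KO library. That row, which was chosen by this absence and is thus no check of the labels, had 184, 451 and 425 UMIs in Sd6, Sd7 and Sd8 of WT. This is 63.8 (55.0 to 73.8), 87.7 (79.8 to 96.2) and 111 (101 to 122) CPM, so that it was higher in each later cluster. In KO it had 0 UMIs in Sd7, where 3 UMIs would be 0.508 CPM. Of the CCR4-NOT subunits 3 of 11 could be read. Cnot4 had 44 UMIs in WT and 92 in KO, a log2 ratio of KO to WT of 0.86 (0.33 to 1.42), Cnot2 had 8 and 20 UMIs, 1.08 (−0.12 to 2.51), and Cnot6 had 4 and 6 UMIs, 0.35 (−1.69 to 2.65). For Cnot2 and Cnot6 a difference was not detectable at this depth.

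The packaging mRNAs of Sd7 stood close in the 2 libraries. The log2 ratio of KO to WT was −0.01 for Prm1, −0.01 for Prm2, −0.08 for Tnp1, −0.06 for Tnp2, −0.04 for Hils1 and 0.18 for Hmgb4. Of the 4549 genes with 10 or more UMIs in WT and KO together, 449 were at least 1.5-fold higher in KO (9.87%) and 170 lower (3.74%), and the median log2 ratio was 0.05. Among the 2978 genes with 100 or more UMIs the counts were 74 (2.48%) and 13 (0.437%). The same counts at 10 or more UMIs were 327 and 255 of 4378 genes in Sd6 and 396 and 213 of 4449 in Sd8, so an excess of higher genes was also seen in the neighbours. Without replicates these counts describe the 2 libraries, and the spread at low UMIs in the plot of ratios by UMIs is part of them.

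The largest ratio belonged to 1700030C10Rik, an unnamed transcript with 4 UMIs in WT and 505 in KO, a log2 ratio of 6.62 (5.41 to 8.66). It was not limited to Sd7, as it had 3 and 221 UMIs in Sd6 and 0 and 423 in Sd8. Of the other genes above 0, Aff4, a scaffold of the super elongation complex, had 226 and 494 UMIs, which is 43.9 and 83.6 CPM and a log2 ratio of 0.93 (0.70 to 1.16). It stood at 39.9 and 77.9 CPM in Sd6 and at 57.1 and 86.8 CPM in Sd8. Smc5 of the SMC5/6 complex (1.10, 0.53 to 1.72), Hormad1 of the meiotic chromosome axis (1.08, 0.49 to 1.73), 4932443I19Rik (1.02, 0.41 to 1.69), Tbpl1, a TBP-like factor (0.96, 0.42 to 1.53), and the nucleolar Nol8 (0.92, 0.45 to 1.41) had 31 to 55 UMIs in WT and 73 to 120 in KO. The list of spermatocyte markers, to which Hormad1 and Tbpl1 belong, had 3 of 25 genes higher and 2 lower in KO, beside 9.87% and 3.74% of all genes, and summed to 4738 CPM in WT and 4845 in KO. At the low end were Gm1821 (−0.92, −1.35 to −0.52), Tmc7 (−0.83, −1.28 to −0.39), Nexn (−0.76, −1.20 to −0.33), an actin-binding protein, Tigd2 (−0.69, −1.16 to −0.23) and 1700123M08Rik (−0.66, −1.03 to −0.30), with 97 to 152 UMIs in WT and 69 to 110 in KO.

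Of the 8 highest and 8 lowest genes, 4 rested on single cells. Hba-a1, Hba-a2 and Hbb-bs, which encode haemoglobin chains of red blood cells, had log2 ratios of −4.57, −4.88 and −4.70. Of their UMIs in WT Sd7, 366 of 383, 253 of 269 and 409 of 443 lay in 1 cell, which had 7626 UMIs in all and 22.4% of them from the 5 protamine and transition protein genes. Hba-a1 and Hba-a2 are near-identical, so their counts cannot be divided with certainty. Igha, the heavy chain of immunoglobulin A, had a log2 ratio of 3.52, and 121 of its 124 UMIs in KO lay in 1 cell. Without these 2 cells the ratios were −0.11, −0.84 and −1.02 for the globins and −1.62 for Igha, while 446 genes were higher and 170 lower in KO.

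Among the lists, 10 of 57 axoneme genes were higher in KO and 1 was lower, beside 9.87% and 3.74% of all genes, and 44 of the 57 had a ratio above 0 (77.2%, against 57.7% of all genes). The median log2 ratio of this list was 0.21 in Sd7, 0.18 in Sd6 and 0.06 in Sd8. Its sum in Sd7 was close in the 2 libraries, at 8416 CPM (8337 to 8496) in WT and 8411 CPM (8338 to 8486) in KO. The 10 were Dnah12, Dnaic1, Cfap45, Cfap53, Cfap57, Cfap58, Cfap74, Cfap161, Lrrc6 and Spag1, with 10 to 86 UMIs in WT and 19 to 154 in KO. Of the manchette and head shaping genes 6 of 31 were higher and none was lower (median 0.25, with 0.10 in Sd6 and 0.23 in Sd8), namely Ift20, Ift88, Katnal2, Iqcg, Ccdc42 and Arl3. In the histone exchange list 8 of 10 genes lay above 0, and 1 was higher and 1 lower by the fold. Its median was 0.28 (0.23 in Sd6 and 0.17 in Sd8), and its most abundant member Phf7 had a log2 ratio of 0.47 (0.43 to 0.51). Of the heat shock proteins and cochaperones 29 of 35 lay above 0 (82.9%), with a median of 0.11 (0.13 in both Sd6 and Sd8), and 3 were higher and none lower by the fold. In the cytosolic ribosome list 20 of 75 lay above 0, and 0 were higher and 2 lower by the fold. Its median was −0.07, and in Sd6 and Sd8 the median was −0.13 and −0.06. In Sd7 of WT and KO the manchette list summed to 11324 and 11399 CPM and the histone exchange list to 2921 and 3837 CPM. The heat shock list summed to 12263.5 and 12970 CPM and the ribosome list to 25421.5 and 24013 CPM. The 4 Sertoli markers with 10 or more UMIs, Aard, Ctsl, Cst9 and Cst12, were all at least 1.5-fold lower in KO. The 6 readable markers had 105 UMIs in WT and 44 in KO. Of these, Ctsl was highest in the spermatocyte cluster Sc1 in both libraries. The list was also lower in KO in Sd6 (33.0 and 8.25 CPM) and Sd8 (32.1 and 8.14 CPM). The part of these marker UMIs in the other differences was not tested.

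**Figure D5:**
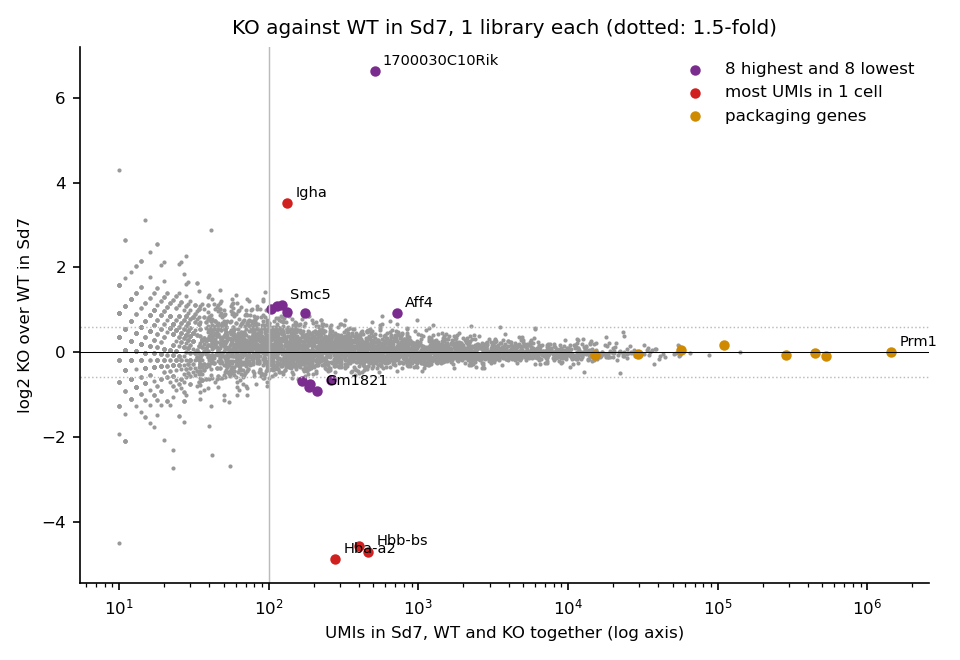
Log2 ratio of KO to WT in Sd7 (vertical axis) against the UMIs of a gene in Sd7 of WT and KO together (horizontal log axis) for the 4549 genes read. Purple and red points are the 8 highest and 8 lowest genes with at least 100 UMIs (grey line), red for the 4 with most UMIs in 1 cell, orange points are the packaging genes and dotted lines stand at 1.5-fold. The packaging genes lie between −0.08 and 0.18, and 1700030C10Rik stands alone at 6.62.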

How the data were processed

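Single-cell RNA-seq of WT and KO testes was deposited as raw UMI counts per gene row and cell, with the UMI counts, genes, percent mitochondrial UMIs and cluster of each cell given by the authors. Per the study's methods, the authors trimmed reads with fastp, aligned them to mm10 with STAR 2.5.3a, counted them with featureCounts 1.6.2 and collapsed UMIs. In Seurat 3.2.3 they integrated and filtered the WT and KO cells, removed batch effects with sctransform and clustered the cells. The clusters were thus made over both libraries together. No doublet caller was run here.

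The symbol list is shorter than the matrix, so rows were named between mitochondrial symbols used as anchors, whose sums equal the deposited percent in all 12408 cells. Rows with UMIs in under 5 cells were taken as those without a symbol. A gene was used where 1 row was possible.

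UMIs were summed per library and cluster (Python 3.11.15, scipy 1.17.1) and scaled to CPM. The log2 ratios had a prior of 1 UMI shared by depth. A gene was read at 10 or more UMIs, in both clusters together in each library or in WT and KO together, and called at 1.5-fold, in both libraries for clusters. Intervals are exact Poisson and binomial. The ratio and naming steps were tested on simulated data. The rule for named genes took the packaging genes, the 8 highest and 8 lowest of each contrast at 100 UMIs, 8 peaks and 5 troughs, the 4 members of each list and the 10 genes overall with most UMIs, and CCR4-NOT subunits; other list members named were chosen after their values were seen. Members and lists were chosen with earlier results of these data known. Alternatives changed the filter, scaling (edgeR 4.0.16, R 4.3.3), prior, fold, thinning, naming, and the 5% of cells with most UMIs.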

Additional observations from a re-analysis of the deposited data

Results flagged for a closer look

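The haemoglobin genes moved in opposite directions between KO and WT in 2 neighbouring clusters, and this difference was not tested. For Hba-a1 the log2 ratio of KO to WT was −4.57 in Sd7 and 6.41 in Sd8. For Hba-a2 it was −4.88 and 5.48, and for Hbb-bs −4.70 and 6.88. In WT Sd7, 366 of 383, 253 of 269 and 409 of 443 UMIs of these genes lay in 1 cell. In KO Sd8, 1095 of 1110, 801 of 807 and 1806 of 1838 UMIs lay in 1 cell.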

How the results depend on the processing

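Against Sd6, the count of 12 higher genes became 0 at a minimum of 50 UMIs, 89 with no filter, 27 with TMM, 19 with totals without protamine and transition protein genes, 28 when centred on the median, 19 with thinned cells, 2 with a prior of 10 UMIs, 3 at 2-fold and 6 with the stricter naming of rows. The 665 lower genes became 432 when centred, 242 at 2-fold and 342 with stricter naming. Against Sd8, the 602 higher genes became 224 at 2-fold and 315 with stricter naming. The 71 lower genes became 11 at 50 UMIs, 147 with no filter, 36 with the larger prior, 10 at 2-fold and 32 with stricter naming. Between KO and WT, the 449 higher genes became 170 at 50 UMIs, 710 with no filter, 143 at 2-fold and 234 with stricter naming. The 170 lower genes became 32, 406, 60 and 66 under these, and 96 with the larger prior. Fewer genes are read at 50 UMIs or with stricter naming, and more with no filter. A 2-fold cutoff can only call fewer genes, and a larger prior shrinks the ratios of genes of few UMIs most. TMM, totals without protamine and transition protein genes, and centring move all ratios of a contrast in the same direction. The cause of the other shifts was not tested. Of 82 values of named genes past the fold, 6 fell under it with TMM and 6 when centred on the median. With thinned cells 5 did, and 3 did with totals without protamine and transition protein genes. In each of 3 other settings 4 did, namely means of single-cell CPM, the 5% of cells with most UMIs left out, and the larger prior. The log2 ratio of Hmgb2 over Sd6 in WT turned from −0.62 to 0.95 with thinned cells, and that of Igha from 3.52 to −1.62 without 2 cells, an alternative chosen after seeing the data. No paired analysis was possible because each genotype has 1 library. Depth limits genes of few UMIs most, and no value covers variation between mice.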
